A study of Mus musculus with 6 samples.

Results

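The 33 genes described here encode the plasma proteins of the hepatic acute phase response and parts of the IL6 pathway that drives it. They were taken as a list of named genes, each represented by the probe set with the highest mean among those carrying exactly 1 gene symbol in the platform annotation. All 33 had such a probe set, out of 12393 genes on the array. They fall into 4 serum amyloids, 3 orosomucoids, 14 other positive acute phase proteins, 4 inter-alpha-trypsin inhibitor heavy chains, 4 negative acute phase proteins and 4 components of IL6 and STAT3 signalling. RNA came from livers of SIRT7 knockout mice (3 samples) and of wild-type mice (3 samples), each on its own 1-colour Affymetrix array. SIRT7 is a nuclear, NAD-dependent deacylase of the sirtuin family. The labels name the knockout allele and a treatment shared by all samples, but neither its nature nor the age, strain and sex of the mice. Whether samples of 1 group are separate mice is not stated, so the p-values and intervals reflect variation among these samples that could be technical. In what follows and in the figures, a liver means 1 such sample.

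In the acute phase response, hepatocytes change the set of proteins they secrete into plasma after infection or injury. IL6 binds its receptor together with the shared signalling chain gp130, which activates the transcription factor STAT3, while IL1 acts through NF-kB and C/EBP factors. Positive acute phase proteins such as serum amyloid A, haptoglobin and fibrinogen then rise in plasma, negative ones such as albumin and transthyretin decline, and SOCS3 limits the signal by feedback.

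Sirt7 itself, the check of the labels, had log2 values of 2.38, 3.11 and 2.85 in knockout livers, against 9.85, 9.80 and 9.57 in wild-type livers. The deposited values ran between 0.841 and 13.969, and array medians lay between 5.69 and 5.77. Defining markers of hepatocytes were bright: the 10 measured, of 12 listed, had a median level of 12.25. In bulk liver, fewer cells of a type and less RNA per cell cannot be told apart. Of the 33 genes, 32 passed the filter of a mean log2 value of at least 4 that was set for testing, and A2m did not. Wild-type replicate 2 stood apart in these genes, as described below, so the count of genes below 0, the median of each class and several single genes are also given without it.

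The serum amyloid and orosomucoid promoters are shown because the genes within each pair have closely similar upstream sequence, with differences of the same sign in the serum amyloids and of opposite sign in the orosomucoids. The 250 bases before the annotated start are from RefSeq (GRCm38.p6), 5′ to 3′ on the gene's strand, at chr7:46742981-46743230 on the minus strand for Saa1 and chr7:46751583-46751832 on the plus strand for Saa2. Those of Orm3 lie at chr4:63355908-63356157 and those of Orm2 at chr4:63362199-63362448, both on the plus strand. Socs3, a direct STAT3 target, is at chr11:117969367-117969616 on the minus strand. Capitals mark matches to TTNNGCAA (C/EBP) or TTCNNNGAA (STAT), searched on both strands. No 2 matches overlap in these windows.
Saa1: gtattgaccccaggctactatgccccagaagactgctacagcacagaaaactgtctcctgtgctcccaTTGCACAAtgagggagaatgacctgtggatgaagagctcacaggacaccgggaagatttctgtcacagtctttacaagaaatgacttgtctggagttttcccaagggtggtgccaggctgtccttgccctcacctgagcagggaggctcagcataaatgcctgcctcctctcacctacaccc
Saa2: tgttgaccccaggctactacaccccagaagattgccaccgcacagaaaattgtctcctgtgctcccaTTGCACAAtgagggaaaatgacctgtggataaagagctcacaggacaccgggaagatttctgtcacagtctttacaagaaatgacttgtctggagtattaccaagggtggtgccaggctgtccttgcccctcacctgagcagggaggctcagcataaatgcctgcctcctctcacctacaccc
Orm3: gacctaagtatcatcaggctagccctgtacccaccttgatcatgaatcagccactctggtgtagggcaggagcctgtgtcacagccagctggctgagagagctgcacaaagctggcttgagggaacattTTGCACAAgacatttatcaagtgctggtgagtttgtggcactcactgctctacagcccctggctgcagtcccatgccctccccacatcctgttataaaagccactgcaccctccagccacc
Orm2: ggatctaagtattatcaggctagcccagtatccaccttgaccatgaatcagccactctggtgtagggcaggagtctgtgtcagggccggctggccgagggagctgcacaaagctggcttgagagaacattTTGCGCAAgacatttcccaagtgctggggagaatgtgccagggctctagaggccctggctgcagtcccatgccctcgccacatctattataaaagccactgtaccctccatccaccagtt
Socs3: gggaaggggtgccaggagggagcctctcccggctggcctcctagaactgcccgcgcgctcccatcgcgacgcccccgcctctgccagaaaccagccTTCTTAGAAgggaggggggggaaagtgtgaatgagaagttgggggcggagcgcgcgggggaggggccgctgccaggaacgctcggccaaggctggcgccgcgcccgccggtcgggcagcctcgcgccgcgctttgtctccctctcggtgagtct

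The Saa1 and Saa2 windows were identical in 94.8% of aligned columns, with 11 mismatches and 2 gap bases, and both carried the same letters at the C/EBP match. The Orm2 and Orm3 windows were identical in 85.5% of aligned columns. Of the 28 genes with a promoter entry, 16 held a C/EBP match in at least 1 window, against 10.8% of all 27025 genes in the table. A STAT match was found for 6 of the 28, namely Apcs, Fga, Fgb, Itih4, Socs3 and Steap4, against 8.13% of all genes. A match is a description of these letters, and binding was not measured.

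The comparison asks how the acute phase genes differ in livers lacking SIRT7. None passed limma's threshold: 0 of 32 had an adjusted p under 0.05 over all 8343 tested genes, of which 0.024% were called. At an unadjusted limma p under 0.05 there were 3 of 32 genes (Saa1, Saa2 and Orm3), against 6.46% of all tested genes. All 3 were lower in knockout livers, against 3.42% of all tested genes, and 0 were higher, against 3.04%. The difference was below 0 for 24 of the 33 genes, against 54.6% of all tested genes, and its median was -0.19, against -0.03 over all tested genes. Without wild-type replicate 2 the count was 18 of 33 (54.5%), against 53.7% of all tested genes. The groups did not overlap in 4 genes, all lower in knockout (Saa1, Orm1, Rbp4 and Il6st), against 5.48% of tested genes, and in 0 toward higher values, against 4.27%.

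**Figure D1:**
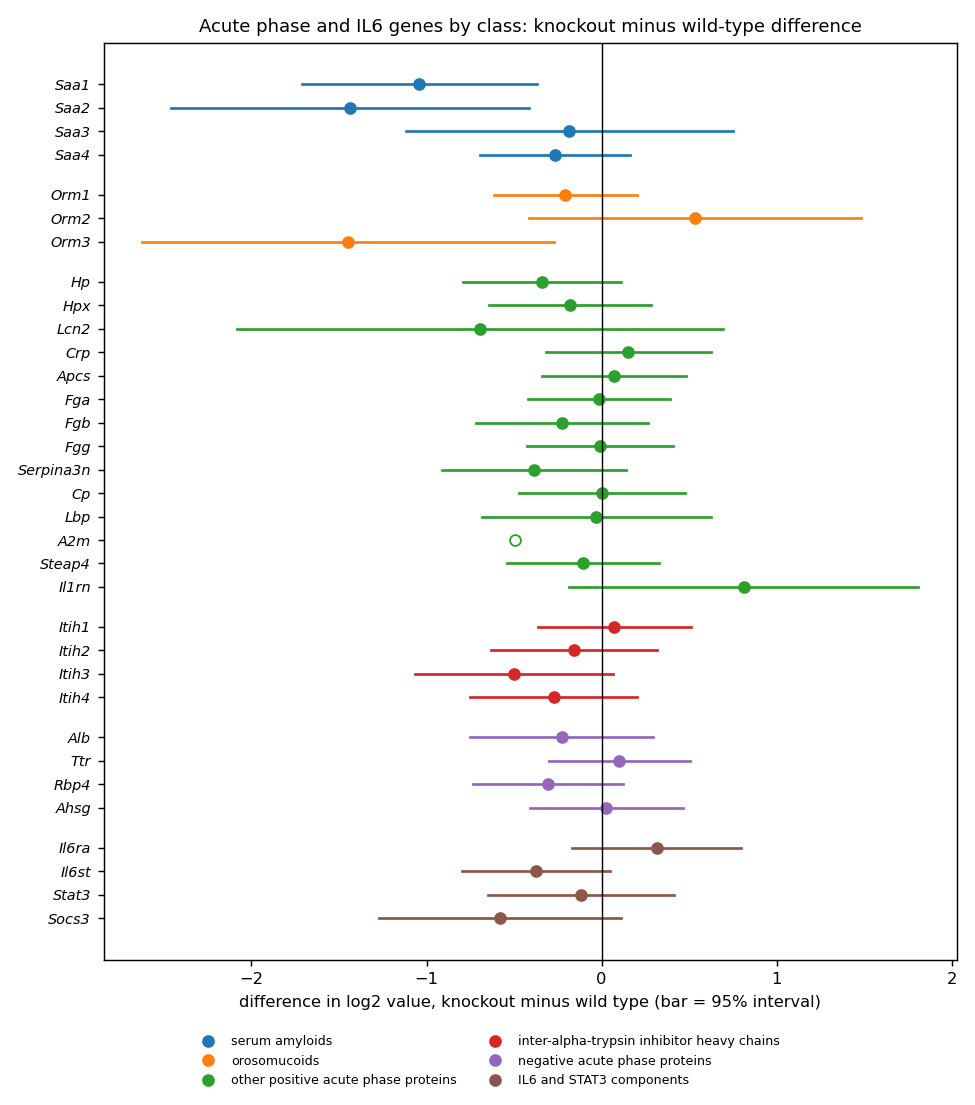
Difference in log2 value between knockout and wild-type livers (x axis) for each gene (y axis), coloured by class. Points are mean differences over 3 livers per group and bars are limma's 95% intervals; the open point is A2m, which was not tested. The intervals of Saa1, Saa2 and Orm3 lie below 0, and no gene passed the adjusted threshold.

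Serum amyloids are small lipoprotein-associated proteins, and SAA1 and SAA2 are the major acute phase forms made by hepatocytes. The 4 genes had a median difference of -0.65, and of -0.53 without wild-type replicate 2. Saa1 had log2 values of 11.24, 10.62 and 11.68 in knockout livers, against 11.99, 12.57 and 12.09 in wild-type livers. Every knockout value was below every wild-type value. The difference of -1.04 (SE 0.30, 95% interval -1.71 to -0.37, 2.06-fold lower) had a limma adjusted p of 0.725. A second Saa1 probe set had 11.01, 10.57 and 10.26 in knockout livers, against 11.84, 12.46 and 11.35 in wild-type livers. It differed by -1.27, again with no overlap. Leaving out each array in turn, Saa1 lay between -1.29 and -0.76.

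Saa2 had 10.79, 9.38 and 9.74 in knockout livers, against 10.71, 12.22 and 11.29 in wild-type livers. Knockout replicate 1 and wild-type replicate 1 were alike, so the groups overlapped. The difference was -1.44 (SE 0.45, limma adjusted p = 0.746), and -1.03 without wild-type replicate 2. The transcripts of Saa1 and Saa2 are near-identical. The brightest Saa1 probe set and the Saa2 probe set are of types that can match more than 1 transcript. How their signal divides between the 2 genes is uncertain. The second Saa1 probe set is not of such a type by its name, and its match to Saa2 was not tested. Saa4, the constitutive serum amyloid, had 11.96, 11.64 and 11.85 in knockout livers, against 11.95, 12.23 and 12.07 in wild-type livers. Knockout replicate 1 and wild-type replicate 1 were again alike, and the groups overlapped there, with a difference of -0.27 (95% interval -0.69 to 0.16), and of -0.49 on a second probe set. Saa3, made by macrophages and other cells as well as hepatocytes, had 8.51, 7.73 and 8.36 in knockout livers, against 8.61, 9.11 and 7.44 in wild-type livers. The wild-type livers held both the highest and the lowest value. Its difference of -0.19 (95% interval -1.12 to 0.75) was 0.18 without wild-type replicate 2.

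**Figure D2:**
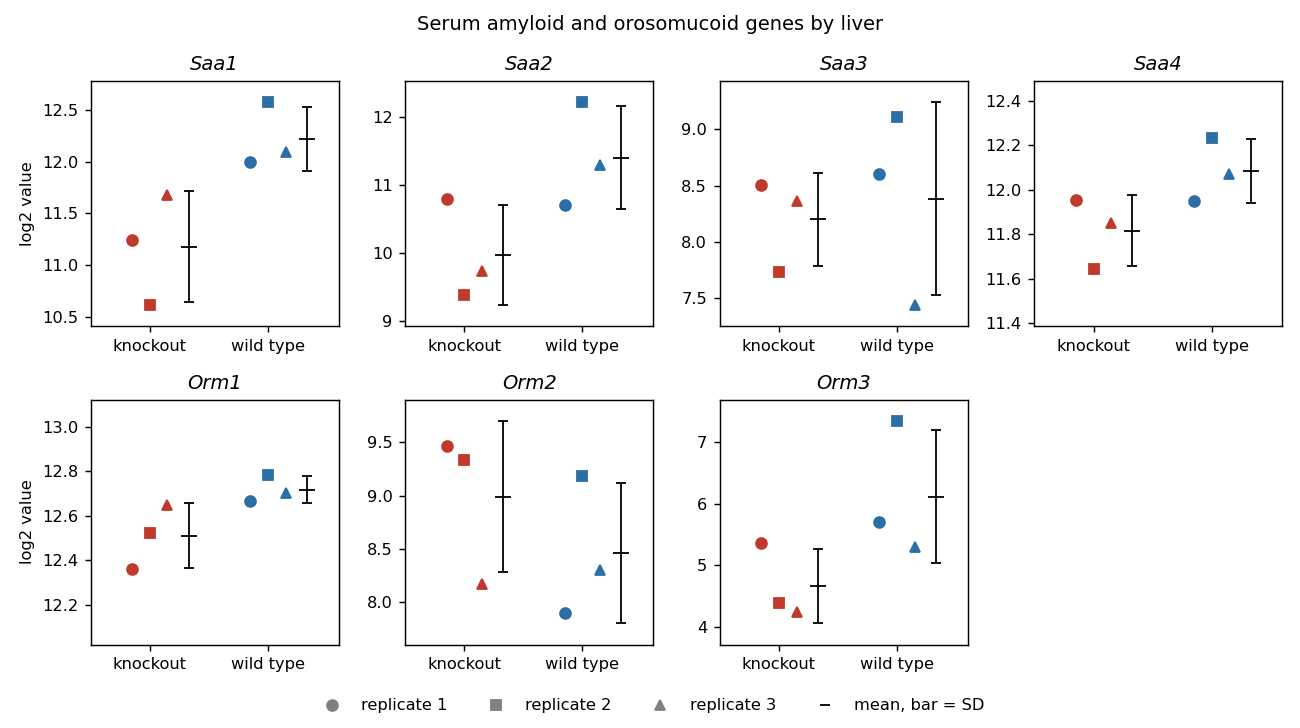
Log2 values (y axis, own scale per gene) of the serum amyloid and orosomucoid genes in 3 knockout and 3 wild-type livers; symbols mark the replicate, and black bars the mean and SD. Saa1 and Orm1 show no overlap between groups, and wild-type replicate 2 is the highest wild-type liver in all 7 panels.

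Orosomucoids, or alpha-1-acid glycoproteins, bind drugs and lipids in plasma. Their median difference was -0.21, and -0.17 without wild-type replicate 2. Orm1 was bright, with 12.36, 12.52 and 12.65 in knockout livers, against 12.67, 12.79 and 12.70 in wild-type livers. The nearest values were 12.651 in a knockout liver and 12.667 in a wild-type liver, so the groups only just failed to overlap, and the difference was -0.21 (SE 0.18, limma adjusted p = 0.834). Orm2 had 9.46, 9.34 and 8.17 in knockout livers, against 7.89, 9.18 and 8.29 in wild-type livers. Both groups held high and low livers, and the difference was 0.53 (95% interval -0.42 to 1.48). Leaving out wild-type replicate 2 gave 0.90, and leaving out each array in turn gave 0.25 to 0.94. Orm3 was dim, with 5.36, 4.39 and 4.25 in knockout livers, against 5.71, 7.34 and 5.29 in wild-type livers. Its difference of -1.45 (SE 0.52, limma adjusted p = 0.760) was -0.83 without wild-type replicate 2, the liver with the highest value. The difference between the Orm2 and Orm3 responses was not tested.

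Among the other positive acute phase proteins the median difference was -0.07 over 14 genes, 10 of them below 0, and 0.02 without wild-type replicate 2. Haptoglobin (Hp), which binds free haemoglobin, had 11.72, 11.73 and 11.96 in knockout livers, against 11.89, 12.21 and 12.33 in wild-type livers. Only wild-type replicate 1 lay within the knockout range, and the difference was -0.34 (95% interval -0.79 to 0.11). Serpina3n, an inhibitor of serine proteases, had 10.58, 10.81 and 11.26 in knockout livers, against 11.09, 11.49 and 11.22 in wild-type livers. Knockout replicates 1 and 2 were below all wild-type livers while knockout replicate 3 was within their range, and the difference was -0.39 (95% interval -0.91 to 0.14).

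Lcn2, which encodes lipocalin 2, a protein that withholds iron-binding siderophores from bacteria, showed the widest range among wild-type livers of the 33 genes. It had 8.43, 8.21 and 8.05 in knockout livers, against 8.21, 10.62 and 7.93 in wild-type livers. Wild-type replicate 2 was 2.54 above the mean of the other wild-type livers, which lay on either side of the lowest knockout value. The difference of -0.69 (95% interval -2.08 to 0.69) turned to 0.15 without that liver. Il1rn, the secreted antagonist of the IL1 receptor, had 6.12, 5.34 and 4.17 in knockout livers, against 4.39, 4.10 and 4.71 in wild-type livers. It was highest in knockout replicates 1 and 2, with a difference of 0.81 (SE 0.44, limma adjusted p = 0.789). The difference was 0.36 without knockout replicate 1 and 1.33 without knockout replicate 3. Its other probe sets, both with means under 4, differed by 0.35 and 0.80.

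Neutrophils and macrophages also express Lcn2, Saa3 and Il1rn. The summed linear level of the 11 measured neutrophil markers (of 12 listed) ranged between 582 and 1466 in knockout livers and between 508 and 856 in wild-type livers, and 8 of the 11 had a mean under 4. The other 3 had differences above 0, with a median of 0.69, and 0 passed the adjusted threshold in limma or had an unadjusted p under 0.05. S100a8, a neutrophil calprotectin subunit, was at 6.58 in wild-type replicate 2, the lowest of the wild-type livers, and S100a9, the partner subunit, at 8.41 there was the lowest of all 6. The summed neutrophil level in that liver was 508, the lowest of the 6. S100a8 and S100a9 made up most of that sum, so it largely repeats their values. The part of neutrophils in the Lcn2 values was not tested. The summed level of 14 Kupffer cell and macrophage markers (of 15 listed) ranged between 11807 and 13224 in knockout livers and between 11166 and 12340 in wild-type livers. Of 13 tested, 10 had a difference above 0 and 3 below 0, with a median of 0.16 and 0 past the adjusted threshold in limma. At an unadjusted limma p under 0.05, 2 were higher, against 3.04% of all tested genes, and 0 lower, against 3.42%. The 2 were the complement gene C1qa (1.05) and the lysosomal marker Cd68 (0.50). The other C1q chains differed less, C1qb (mean 12.36) by 0.08 and C1qc by 0.31. The receptor gene Csf1r differed by -0.63, Ccr2 by -0.34 and Clec4f by -0.15. The part of macrophages in the Saa3 and Il1rn values was not tested.

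**Figure D3:**
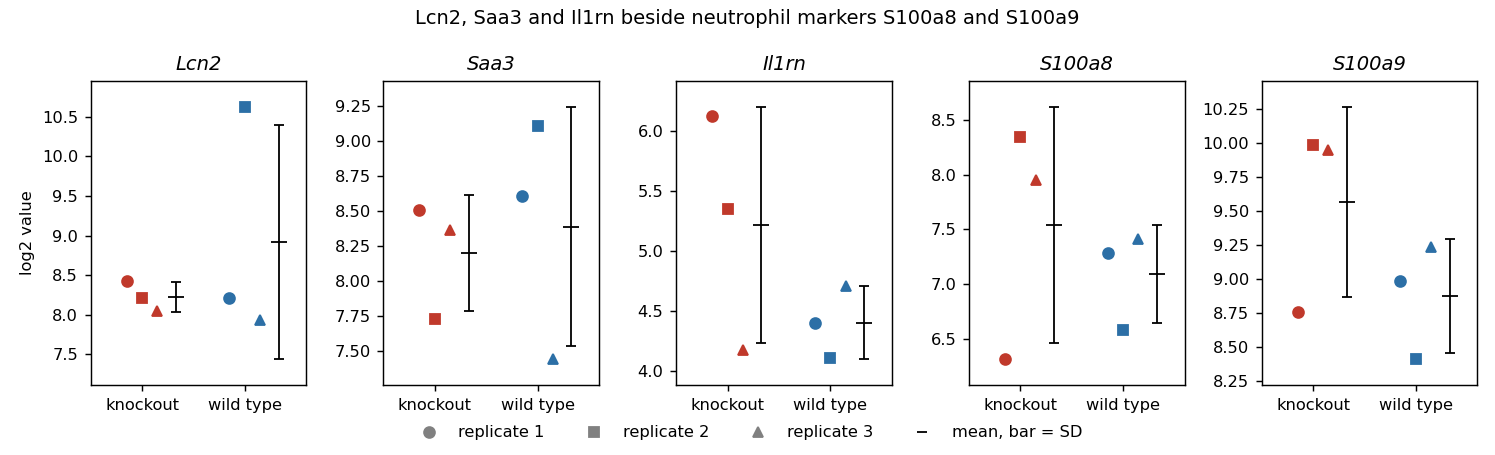
Log2 values (y axis, own scale per gene) of Lcn2, Saa3 and Il1rn beside the neutrophil markers S100a8 and S100a9 in 3 knockout and 3 wild-type livers, with mean and SD. Lcn2 is highest in wild-type replicate 2 (10.62), where S100a9 is lowest (8.41).

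The remaining positive acute phase genes lay closer to 0 on their brightest probe sets, apart from A2m. The fibrinogen chains, which form the clot protein, differed by -0.02 (Fga), -0.23 (Fgb) and -0.01 (Fgg). The pentraxins Crp and Apcs, which bind microbial surfaces and of which Apcs is the main acute phase form in mice, differed by 0.15 and 0.07. Hpx, the haem carrier hemopexin, differed by -0.18, and Lbp, which presents bacterial lipopolysaccharide to immune cells, by -0.03. Steap4, a metalloreductase gene induced by STAT3, differed by -0.11 on its brighter probe set and by -0.81 on a dimmer one (mean 6.21). There it had 5.93, 6.05 and 5.44 in knockout livers, against 6.90, 6.16 and 6.79 in wild-type livers, with no overlap. Cp, the copper-carrying ferroxidase ceruloplasmin, differed by 0.003 on its brightest probe set and between -0.65 and 0.14 on its 6 others. A2m, a broad protease inhibitor, was near the lower end in all livers, with 2.80, 3.28 and 4.23 in knockout livers, against 4.30, 3.94 and 3.55 in wild-type livers, and was not tested.

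Inter-alpha-trypsin inhibitor heavy chains are linked to hyaluronan in the extracellular matrix, and in humans ITIH4 is a positive acute phase protein. Their median difference was -0.22, and -0.18 without wild-type replicate 2. Itih3 had 11.60, 11.86 and 12.39 in knockout livers, against 12.20, 12.66 and 12.49 in wild-type livers. Knockout replicates 1 and 2 were below all wild-type livers, and the difference was -0.50 (SE 0.25, limma adjusted p = 0.775). Itih4 had 12.27, 12.25 and 12.66 in knockout livers, against 12.43, 12.85 and 12.72 in wild-type livers, and differed by -0.27 (95% interval -0.75 to 0.20). Itih2 had 12.06, 12.21 and 12.52 in knockout livers, against 12.23, 12.39 and 12.64 in wild-type livers. Its groups overlapped, with a difference of -0.16. Itih1 had 11.73, 11.92 and 11.80 in knockout livers, against 11.51, 11.91 and 11.82 in wild-type livers, a difference of 0.07. In Itih2, Itih3 and Itih4, as in Hp, knockout replicate 3 was the highest of the knockout livers.

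The negative acute phase proteins did not show the opposite direction as a class: 2 of 4 were below 0 and the median difference was -0.10 with or without wild-type replicate 2. The sign of that median turned, to 0.05, with each probe set on its own. Rbp4, the plasma carrier of retinol, had 12.32, 12.37 and 12.57 in knockout livers, against 12.64, 12.62 and 12.92 in wild-type livers. The groups did not overlap, and the difference was -0.30 (SE 0.19, limma adjusted p = 0.796). Albumin (Alb), the main plasma protein, had 12.41, 12.45 and 13.10 in knockout livers, against 12.80, 12.90 and 12.94 in wild-type livers. The knockout livers lay on both sides of the wild-type range, and the difference was -0.23 (95% interval -0.75 to 0.29). Transthyretin (Ttr), which carries thyroid hormone, had 13.06, 13.16 and 13.31 in knockout livers, against 13.13, 13.06 and 13.04 in wild-type livers, and differed by 0.10. Fetuin-A (Ahsg), an inhibitor of mineral deposition, had 12.98, 12.84 and 13.20 in knockout livers, against 12.86, 12.94 and 13.14 in wild-type livers, and differed by 0.03. All 4 were among the 11 genes at or above the 99th percentile of level, near the highest value on the arrays. The median size of the difference was 0.10 in those 11 and 0.36 in the other 22.

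Of the IL6 pathway components, the receptor was the one with a positive difference. The class median was -0.25, and -0.15 without wild-type replicate 2. Il6ra, the ligand-binding chain, had 8.95, 8.46 and 8.999 in knockout livers, against 8.34, 8.51 and 8.61 in wild-type livers. Knockout replicates 1 and 3 were above every wild-type liver, and the difference was 0.32 (SE 0.21, limma adjusted p = 0.797). Il6st, the gp130 chain shared by IL6-family cytokines, had 9.71, 9.92 and 9.80 in knockout livers, against 9.99, 10.33 and 10.24 in wild-type livers. The groups did not overlap on this brightest probe set, with a difference of -0.37 (SE 0.19, limma adjusted p = 0.775), while dimmer probe sets differed by -0.04 and 0.26. Stat3 had 9.29, 9.93 and 9.85 in knockout livers, against 9.61, 10.05 and 9.76 in wild-type livers. Its groups overlapped, with a difference of -0.12, and of 0.003 without wild-type replicate 2. Socs3, the feedback inhibitor, had 5.70, 6.65 and 6.40 in knockout livers, against 6.85, 7.23 and 6.41 in wild-type livers. The lowest wild-type liver lay within the knockout range, and the difference was -0.58 (95% interval -1.27 to 0.11). It was -0.38 without wild-type replicate 2, and -0.30 and -0.15 on the other probe sets.

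Across the 33 genes, wild-type replicate 2 often held the top value. It was the highest of all 6 arrays in 16 of the 33 genes (48.5%), against 17.4% of all tested genes. The same liver was also highest in 5 of 10 hepatocyte markers. It was highest in 10 of 39 other acute phase and complement genes and in 5 of 25 other IL6, IL1 and STAT3 pathway genes. Those 2 shares lay nearer the 17.4% of all tested genes than the 48.5% of the 33 genes. Wild-type replicate 2 was above the mean of the other wild-type livers by 2.54 in Lcn2, 1.84 in Orm3 and 1.22 in Saa2. The excess was 1.09 for Orm2, 1.08 for Saa3, 0.615 for Lbp and 0.61 for Socs3. The negative acute phase genes stood near the other wild-type livers there, between -0.16 (Rbp4) and 0.03 (Alb). Several positive ones did so too, with 0.10 for Orm1 and Hp, 0.07 for Hpx and Crp, and 0.01 for A2m. Il1rn was below the other wild-type livers, at -0.45. At the other end, knockout replicate 1 was the lowest array in 14 of the 33 genes (42.4%), against 29.1% of all tested genes. The median deviation of the 33 genes from their own mean was -0.16, -0.16 and 0.04 in knockout replicates 1 to 3, against -0.004, 0.24 and 0.04 in wild-type replicates 1 to 3.

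**Figure D4:**
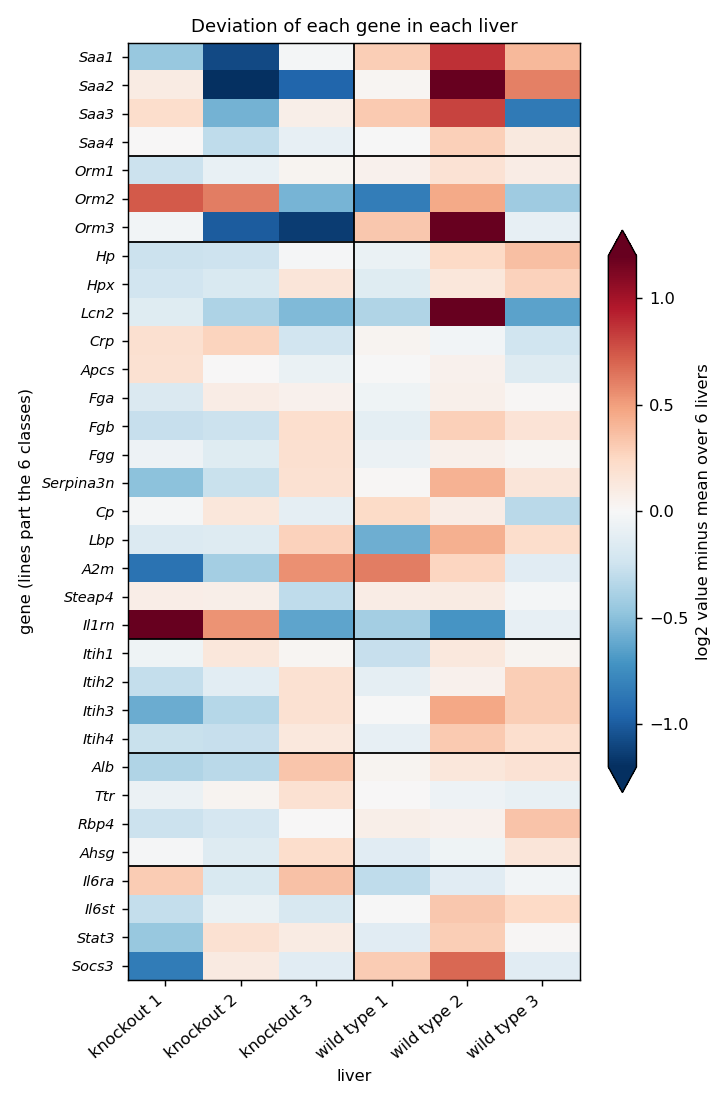
Log2 value of each gene (rows) in each liver (columns) minus the gene's mean over the 6 livers; lines part the classes, in the order of the text, and the groups. Colours stop at 1.2 in either direction. Saa1, Saa2, Saa3, Orm3, Lcn2 and Socs3 share their highest value in wild-type replicate 2.

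**Figure D5:**
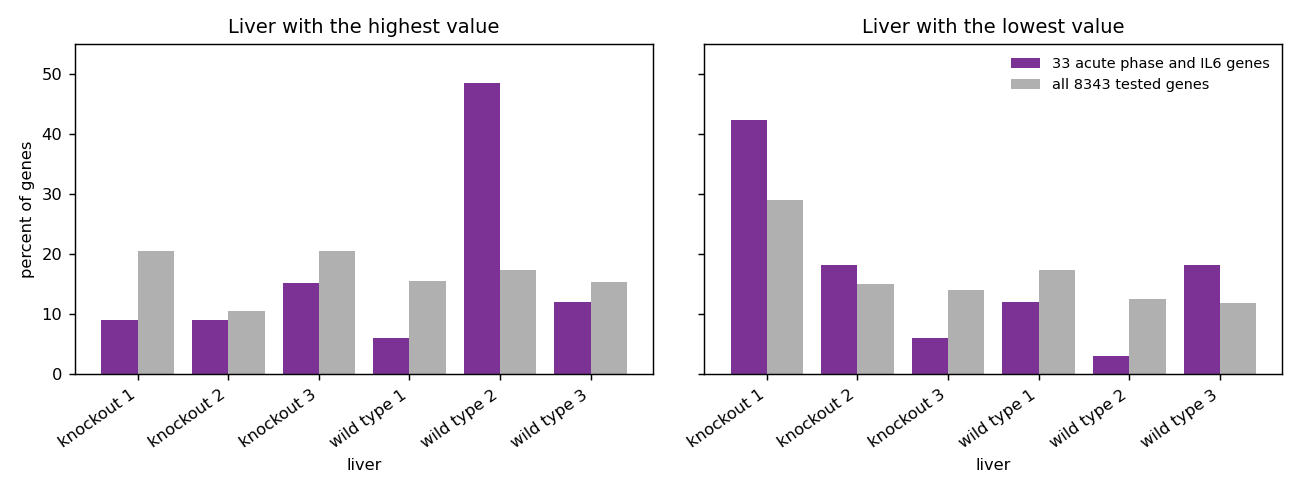
Percent of genes (y axis) for which each liver (x axis) held the highest value (left) or the lowest value (right), for the 33 acute phase and IL6 genes and for all 8343 tested genes. Wild-type replicate 2 holds the highest value in 48.5% of the 33 genes and 17.4% of all tested genes; it did so too in 5 of 10 hepatocyte markers, which are not plotted.

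Other genes of the response were read from lists. Of 39 tested genes for further acute phase and complement plasma proteins, 0 passed limma's adjusted threshold, and the difference was below 0 in 31 (79.5%, against 54.6% of all tested genes) with a median of -0.21. At an unadjusted limma p under 0.05, 3 were lower (Serpinc1, Mbl2 and Fgl1), against 3.42% of all tested genes, and 2 higher (Cd14 and Hamp2), against 3.04%. Antithrombin (Serpinc1) differed by -0.63 (SE 0.22, limma adjusted p = 0.760). The mannose-binding lectin Mbl2 differed by -0.50. Groups did not overlap in any of these 3 lower genes, nor in 5.48% of all tested genes toward lower values. Overlap was not counted over the list. Cd14, the lipopolysaccharide co-receptor, had 5.65, 5.33 and 5.57 in knockout livers, against 4.96, 4.84 and 4.73 in wild-type livers. Its difference of 0.68 (SE 0.19, limma adjusted p = 0.705) came with no overlap. The hepcidin paralogue Hamp2 differed by 0.65 (SE 0.27), while the hepcidin gene Hamp differed by -0.345 (SE 0.18), with no overlap between groups. Without wild-type replicate 2 the count below 0 was 28 of 39. Hepatocyte markers outside the response were also mostly below 0, in 8 of 10 genes with a median of -0.13. Differences were below 0 in 5 of 12 tested endothelial and stellate cell markers, 4 of 9 lymphocyte markers and 2 of 3 cholangiocyte markers.

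Of 25 tested genes among other IL6, IL1 and STAT3 pathway genes, 0 passed the adjusted threshold and 0 had an unadjusted limma p under 0.05. The difference was below 0 in 20 of them (80.0%, against 54.6% of all tested genes), with a median of -0.17. Leaving out 1 array gave between 17 (68%, without knockout replicate 1) and 22 (88%, without knockout replicate 2). The matching shares of all tested genes were 52.3% and 54.1%. With the mean of probe sets the count was 17 (68%), against 52.4%. The smallest p-values were those of Osmr, the oncostatin M receptor chain (-0.72, SE 0.35), Bcl3, an NF-kB cofactor (-0.71, SE 0.37), Rela, an NF-kB subunit (-0.35, SE 0.20), and the cytokine gene Il1a (-0.54, SE 0.33). Osmr, like Socs3, was highest in wild-type replicate 2, at 7.28. Il6 itself lay between 2.22 and 2.27 in knockout livers and between 2.25 and 2.56 in wild-type livers, under the filter. Chosen after its values were seen, Cebpd, a C/EBP factor induced in the acute phase, had 6.11, 5.74 and 6.22 in knockout livers, against 5.91, 7.44 and 5.80 in wild-type livers. Its highest value was in wild-type replicate 2, which was known when it was picked. Of the 25 tested genes of this list, 5 were highest in that liver, against 17.4% of all tested genes. Cebpd differed between groups by -0.36 (95% interval -1.29 to 0.58).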

How the data were processed

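The authors deposited log2 expression values per probe set and array, and the submitters' processing notes name GCRMA 2.20.0 and R 2.11.1. That the scale is log2 was read from the range of the values; no source used here gives the settings. GCRMA models background on the sequence of each probe. Values near the lower end and near the top may be compressed, which was not tested. No detection calls came with the values. Of 22626 probe sets, 20380 carried 1 gene symbol in the platform annotation, 691 several and 1555 none or were not listed. Genes with a mean log2 value under 4 were not tested, which left 8343 genes.

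Knockout was compared with wild type over all tested genes by limma 3.58.1 under R 4.3.3 (moderated, 2-sided, no further normalization, no replicate block), with Benjamini-Hochberg adjustment and a threshold of 0.05. Errors of differences are limma's moderated SE, and the number of arrays limits precision. The step was tested on simulated data. At the adjusted threshold limma recovered 37.3% of simulated log2 changes of 1, 83.6% of 2 and 97.0% of 3. Of its 154 calls, 9 were false. A lack of calls therefore does not mean a lack of differences near 1. The 33 genes, the gene lists and the settings were chosen with earlier results of these data known. Every one of the 33 genes is named; per-liver values are given for all serum amyloids, orosomucoids and IL6 components, and in other classes for genes with an unadjusted p under 0.1 and the 4 with the smallest p; of the 2 lists of other pathway genes, the 4 with the smallest p are named. Fgl1, Hamp, Il6 and the cell type markers named singly, the per-liver values of A2m and those of second probe sets fall outside that rule and were picked with their values known. The alternatives tried were other filters, probe set rules, normalizations, array weights, the block and leaving out each array.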

Additional observations from a re-analysis of the deposited data

How the results depend on the processing

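Values near either end of the scale may be compressed, which could limit the differences of the dimmest and brightest genes and was not tested. No acute phase gene was called in any alternative except array weights, which called 9 of them and 1748 genes over all. That fit gave knockout replicate 2 a weight of 6.12 and wild-type replicate 2 one of 2.54, against 0.31 to 0.89 for the other arrays, so it rests mainly on those 2 livers. Under it 15 of the genes had an unadjusted limma p under 0.05, with no matching share of all tested genes given. The serum amyloid median was -1.13, and Apcs (-0.0034), Fga (0.043) and Ahsg (-0.079) changed sign. Same-numbered livers shared only a number: their deviations from the group means correlated at -0.089, -0.091 and -0.19, and none correlated best with its own number. With a replicate block 0 acute phase genes and 2 genes over all were called. With the mean of probe sets, 1 gene was called over all, the median of other positive acute phase proteins was -0.20, and Cp differed by -0.25. Taking each probe set on its own gave 7 probe sets at an unadjusted limma p under 0.05. Cp was counted more than once there, and no matching share of all probe sets is given. That setting also gave a median of 0.05 for negative acute phase proteins, and Cp at -0.31, -0.64, -0.65 and -0.30. Under quantile normalization Fga (0.056) and Fgg (0.074) changed sign. The stricter filter, at a mean of at least 6, left out Orm3 and gave an orosomucoid median of 0.16.

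Without 1 array, the genes called over all numbered 1 to 38. The acute phase genes at an unadjusted limma p under 0.05 numbered 3 to 7, the 7 without knockout replicate 3. No share of all tested genes at that p is given for these fits. The counts are therefore not read as a result about the acute phase genes. The count of the 33 genes below 0 ran between 18 (without wild-type replicate 2) and 26. The medians ran between -0.88 and -0.47 for serum amyloids, -0.28 and -0.13 for orosomucoids, -0.19 and 0.015 for other positive acute phase proteins, -0.35 and -0.13 for the inhibitor heavy chains, -0.23 and -0.007 for negative acute phase proteins, and -0.34 and -0.11 for IL6 and STAT3 components. Genes whose sign changed without an array were Saa3 (-0.66 to 0.18), Lcn2 (-1.19 to 0.15), Apcs (-0.0033 to 0.13), Fga (-0.065 to 0.066), Fgg (-0.11 to 0.062), Cp (-0.16 to 0.12), Lbp (-0.33 to 0.18), Steap4 (-0.17 to 0.022), Itih1 (-0.045 to 0.16), Ahsg (-0.069 to 0.11) and Stat3 (-0.24 to 0.082). The cause of these changes was not tested.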
